A study of Rattus norvegicus with 6 samples.

Results

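Cells place and erase marks on DNA and histones through a limited set of enzymes and complexes, and 52 genes of that machinery are described here: DNA methylation, Polycomb repression and chromatin remodelling. A probe set, the group of array probes read as 1 value, counted for a member when the platform's annotation gave it exactly 1 gene symbol and that symbol was the member's. By this rule 44 of the 52 members were measured, out of 18166 genes on the array, each through 1 probe set. The 8 members not analysed here were Tet2, Suz12, Jarid2, Cbx1, Cbx3, Hdac9, Chd7 and Ep300.

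RNA came from 3 NSCP and 3 SKP cultures, 1 array for each, all started from newborn wild-type Sprague-Dawley rat pups as independent isolates. NSCPs are nerve-derived Schwann cell precursors from the sciatic nerve, grown with 25 ng/ml neuregulin-1β, 5 μM forskolin, which raises cAMP, and 2% N2, attached to a coat of poly-D-lysine (30 μg/ml) and laminin (4 μg/ml). SKPs are skin-derived precursors from back skin, regrown as spheres from dissociated secondary spheres at 50000 cells/ml with EGF (20 ng/ml), FGF2 (40 ng/ml) and, as the run-on growth text was read, 2% B27. Tissue, medium and growth form change together between the groups, so their effects cannot be told apart.

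DNA methylation is kept through cell division by a maintenance methyltransferase that copies marks onto the new strand, and it is erased by dioxygenases that oxidise the methyl group. Polycomb complexes repress developmental genes by modifying histone tails, and ATP-dependent remodellers move or evict nucleosomes. In the Schwann cell lineage of mice, deacetylases, SWI/SNF and CHD remodellers are needed for differentiation and myelination.

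The labels were checked against marker lists. Of 8 measured Schwann cell lineage markers 7 were higher in NSCPs, and all 10 dermal mesenchyme markers were lower. All 12 leukocyte markers were lower in NSCPs too: their mean log2 value lay between 4.94 and 5.15 in NSCP arrays, against 9.53 to 10.59 in SKP arrays, and 10 of the 12 were within background in NSCPs, Lyz2 and Ptprc among them, against 0 in SKPs. Background here is a log2 value of 5.50, the 95th percentile of 1344 olfactory and vomeronasal receptor genes. Adipocyte markers were lower in 6 of 6 genes. Melanocyte markers were mixed, with 2 higher and 2 lower of 6. Of 4 endothelial markers 2 were higher, of 5 muscle markers 1, and of 4 keratinocyte markers 0 were called. All 28 measured proliferation genes were higher in NSCPs, with a mean log2 value of 10.02 to 10.08 in NSCP arrays and 7.68 to 7.96 in SKP arrays. The part of leukocytes and of proliferation in the results below was not tested, and in bulk RNA fewer cells of a type and less RNA per cell cannot be told apart.

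Most of the 44 measured members differed between the cell types, and more of them were higher than lower in NSCPs. Tested with limma across the 18166 genes (adjusted p under 0.05, Benjamini-Hochberg), 21 of 44 members were higher and 8 lower in NSCPs, and 15 did not pass. Over all genes 25.2% were higher, 18.6% lower and 43.7% called in either direction. The counts by role group and list below, many of them over few genes, are to be read against these shares. No group was tested as a set. The members' share called was 65.9%, with 47.7% higher and 18.2% lower, so the share of lower members lay near that of all genes. Of the 18166 genes 5495 were within background in both groups, against 1 of 44 members. The shares of all genes thus include many dim genes, and the 2 sets are not alike in level. At least 2-fold differences were found for 8 higher members, Uhrf1, Ezh2, Hmgb2, Rbbp4, Hells, Cbx5, Chd4 and Dnmt1, and 4 lower ones, Smarca2, Ezh1, Hmga2 and Tet1, which is 18.2% and 9.09% of the members, against 7.45% and 9.98% of all genes. The 3 NSCP and 3 SKP arrays did not overlap in 34 of 44 members, against 56.6% of all genes. The median difference was 0.31 on the log2 scale over the members and 0.14 over all genes. Members were chosen with earlier results of these data known, so their shares do not stand for chromatin genes at large. Of 159 other chromatin genes, described below, 47.8% were called and 27.7% were higher, with a median difference of 0.11.

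**Figure D1:**
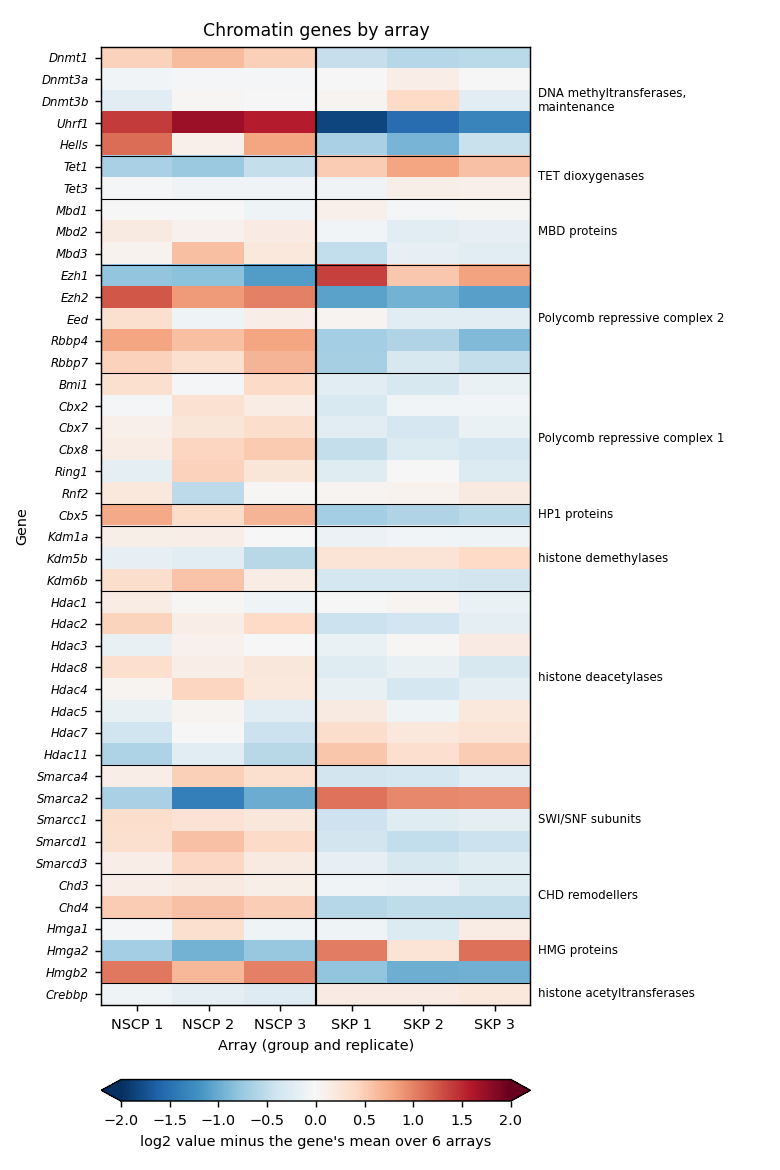
Log2 expression values of the 44 measured members in each array, shown as the difference from the gene's mean over the 6 arrays (colour, on a scale to 2 in both directions), with the 3 NSCP arrays left and the 3 SKP arrays right and members grouped by role. Uhrf1, Ezh2 and Hmgb2 are red in the NSCP arrays and blue in the SKP arrays, while Ezh1, Smarca2, Hmga2 and Tet1 run the other way.

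The machinery that maintains DNA methylation was higher in NSCPs, and the enzymes that set new marks did not pass. Of the 5 members of this group 3 were higher and 0 lower, or 60% called against 43.7% of all genes. Uhrf1 recognises half-methylated DNA behind the replication fork and brings in the methyltransferase. Its log2 values were 10.04, 10.36 and 10.22 in NSCPs, against 6.81, 7.12 and 7.32 in SKPs. Every NSCP array lay above every SKP array, and the difference of 3.12 (SE 0.16, adjusted p = 1.26e-06), or 8.69-fold, was higher than that of 99.3% of all genes.

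Dnmt1, the maintenance methyltransferase, had log2 values of 10.23, 10.40 and 10.25 in NSCPs and 9.31, 9.21 and 9.24 in SKPs. The groups stood clear of each other with a spread within each of 0.09 and 0.05 (SD), and the level was 2.06-fold higher in NSCPs (adjusted p = 1.20e-04). Hells, a remodeller of the SNF2 family that DNA methylation of repeats depends on, stood at 8.34, 7.33 and 8.02 in NSCPs and at 6.58, 6.30 and 6.77 in SKPs. It was 2.54-fold higher in NSCPs (adjusted p = 0.00254), and its SD of 0.52 among NSCP arrays was the largest of any member, with replicate 2 the lowest.

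The de novo methyltransferase genes did not pass. Dnmt3a averaged 6.68 ± 0.003 in NSCPs and 6.77 ± 0.07 in SKPs (SD, 3 arrays each), a difference of -0.09 with a 95% interval from -0.34 to 0.16. Dnmt3b was within background in both groups, at 5.04 ± 0.14 and 5.18 ± 0.32 (SD, 3 arrays each) in NSCPs and SKPs.

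Among the genes that remove or read the mark, Tet1 was lower in NSCPs and Mbd3 higher. Tet1, a dioxygenase that starts demethylation, had log2 values of 5.96, 5.87 and 6.13 in NSCPs, against 7.12, 7.40 and 7.20 in SKPs. All NSCP arrays lay below all SKP arrays and not far above background, and the level fell by 1.25 on the log2 scale (SE 0.13, adjusted p = 9.17e-05). Its relative Tet3 did not pass, at 7.82 ± 0.03 in NSCPs and 7.92 ± 0.10 in SKPs (SD, 3 arrays each), with a 95% interval of the difference from -0.37 to 0.16. Of the 3 methyl-CpG-binding domain genes, Mbd3, which encodes a subunit of the NuRD deacetylase complex, was 1.51-fold higher in NSCPs (adjusted p = 0.0202, and 0.0660 without SKP replicate 1). Mbd2, which encodes its methyl-binding alternative, differed by 0.29 (adjusted p = 0.0684) and Mbd1 by -0.06 (adjusted p = 0.709), and neither passed.

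Promoter sequences from RefSeq (build GRCr8) were searched, because several of the higher members are known targets of the E2F factors, which drive genes of DNA replication. The E2F letters were thus chosen with the calls known, so their split by call is a description and not a test. A window ran from 250 bases before to 50 bases after a gene's start, and 40 of the 44 measured members had at least 1; Ezh1, Dnmt3b, Cbx2 and Hdac11 had none. The letters searched on both strands were TTTCCCGC, TTTCGCGC, TTTGCCGC and TTTGGCGC. They stood in 5 of the 21 members higher in NSCPs (Uhrf1, Dnmt1, Hells, Ezh2 and Smarcd1), in 0 of the 6 lower members with a window and in 1 of 13 that did not pass (Kdm1a). Of all 33469 windows 2.14% held them, as did windows of 3.16% of the genes in the fit, 5.10% of those higher in NSCPs, 2.49% of those lower, and 8 of 21 proliferation genes. The shorter cell cycle letters TTTGAA stood in the windows of 4 of the 40 members, against 16.7% of the genes in the fit. All 4 were higher in NSCPs (Cbx7, Hdac8, Hmgb2 and Smarcd3). That is 19.0% of the 21 higher members, near the 17.1% of all genes higher in NSCPs. Of 21 proliferation genes 8 held them. A match is a description of the letters and not a binding site, and no match says only that these letters are not in the window.

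The stretches with the E2F letters are shown for the 3 maintenance genes, since these carried the difference in the group, in the direction of transcription and with the matches in capitals. For Uhrf1 they lie in 1 of 3 annotated windows, at chr9:1222976-1223105 on the plus strand, 210 to 81 bases before the start. For Hells the stretch is chr1:246114029-246114128 on the plus strand, the 100 bases before the start. For Dnmt1 the match lies just inside the transcript, at chr8:27762807-27762836 on the minus strand, bases 6 to 35 from the start.
Uhrf1: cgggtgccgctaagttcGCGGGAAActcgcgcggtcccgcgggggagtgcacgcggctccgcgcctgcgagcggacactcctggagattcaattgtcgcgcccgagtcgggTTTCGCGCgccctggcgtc
Hells: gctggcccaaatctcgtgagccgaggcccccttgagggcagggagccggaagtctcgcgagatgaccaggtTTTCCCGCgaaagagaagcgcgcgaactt
Dnmt1: ctcccaattggtttccgcgcGCGCGAAAaa
In Uhrf1 and Dnmt1 the matches GCGGGAAA and GCGCGAAA are the letters read on the opposite strand.

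Polycomb repressive complex 2, which methylates histone H3, differed in its catalytic subunits in opposite directions. Of 5 measured members 3 were higher, 1 lower and 1 did not pass, or 80% called against 43.7% of all genes. Ezh2 encodes the catalytic subunit that prevails in dividing cells, and Ezh1 its alternative, known from mice for a larger part in cells that no longer divide. Ezh2 had log2 values of 10.88, 10.49 and 10.65 in NSCPs, against 8.57, 8.69 and 8.55 in SKPs, and was 4.20-fold higher in NSCPs (adjusted p = 5.12e-06). All NSCP values lay above all SKP values.

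Ezh1 stood at 7.96, 7.92 and 7.63 in NSCPs, against 10.11, 9.29 and 9.55 in SKPs, and fell by 1.82 on the log2 scale (SE 0.21, adjusted p = 1.64e-04). No NSCP value reached the SKP values. Among these replicate 1 was highest and replicate 2 lowest. The mean of the leukocyte markers had the same order, at 10.59, 9.53 and 9.82 in SKP replicates 1, 2 and 3. So did the mean of the adipocyte markers, while that of the dermal mesenchyme markers had the reverse order. Some other members, Hdac7 and Hdac11 among them, also had the order of Ezh1, and others did not. Only a few orders are possible with 3 arrays, and no conclusion is drawn from a shared one. The contribution of leukocytes to the Ezh1 level was not tested.

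Taking both genes within each array, Ezh2 shifted against Ezh1 by 3.89 log2 units between NSCPs and SKPs, a 14.8-fold change of their ratio. The within-array differences of the 2 groups did not overlap, which follows from both genes separating the groups in opposite directions. The exact 2-sided permutation test gave p = 0.1, the smallest that 3 against 3 arrays allow, and an adjusted p of 0.129 over 9 pairs. The test therefore could not reach 0.05 for any pair. The shift compares changes and not the levels of the 2 probe sets.

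The Ezh2 promoter is shown because it holds a sequence of the E2F set, TTTGGCGC, which differs from the matches in the maintenance genes. The stretch is chr4:77687164-77687273 on the minus strand, from 90 bases before the start to base 20 of the transcript.
Ezh2: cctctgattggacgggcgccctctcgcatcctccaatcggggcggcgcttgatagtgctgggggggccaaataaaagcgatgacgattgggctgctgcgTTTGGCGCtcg

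The histone-binding subunit genes were higher in NSCPs as well. Rbbp4 and Rbbp7 encode paralogous WD-repeat proteins that serve in Polycomb, NuRD and other complexes. Rbbp4 had log2 values of 10.16, 9.98 and 10.15 in NSCPs and 8.69, 8.77 and 8.48 in SKPs, 2.73-fold higher in NSCPs (adjusted p = 3.36e-05). Rbbp7 had 11.22, 11.08 and 11.43 in NSCPs and 10.09, 10.43 and 10.27 in SKPs, 1.97-fold higher (adjusted p = 6.88e-04). In both the groups were separate. Rbbp7 shifted against Rbbp4 by -0.47, without overlap between groups (exact permutation p = 0.1, adjusted p = 0.129). Eed, the subunit that binds the methylated histone, did not pass, at 8.68 ± 0.20 in NSCPs and 8.43 ± 0.16 in SKPs (SD, 3 arrays each).

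**Figure D2:**
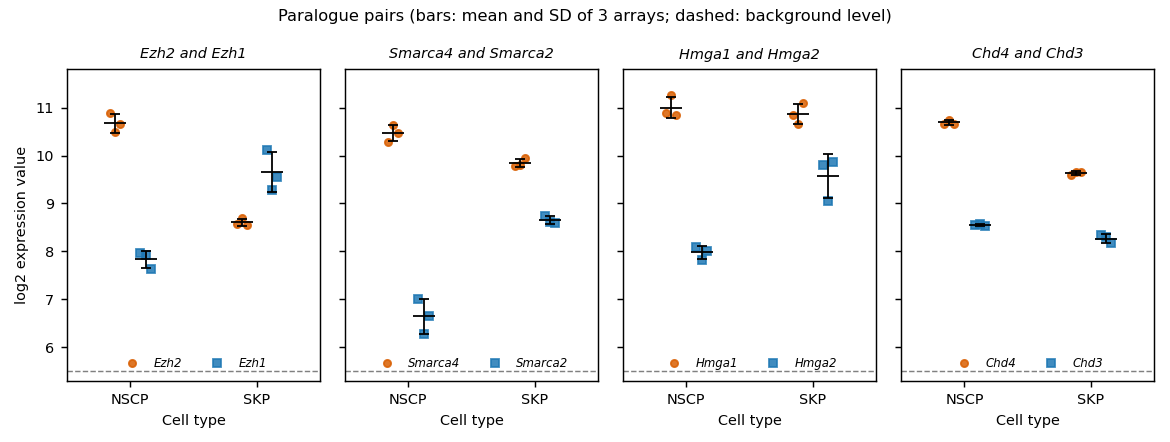
Log2 expression values of 4 paralogue pairs in NSCPs (left in each panel) and SKPs (right), with a point for each of 3 arrays, the mean and SD as bars and the background level of 5.50 dashed. Ezh2 and Ezh1 moved in opposite directions, as did Smarca4 and Smarca2; Hmga2 was lower in NSCPs while Hmga1 did not pass, and Chd4 was higher while Chd3 did not pass.

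Polycomb repressive complex 1 reads the methylated histone and ubiquitinates another. Of its 6 members 3 were higher in NSCPs, 0 were lower and 3 did not pass, a share called near the 43.7% of all genes; before adjustment none of them had a lower level at p under 0.05 in limma either. Cbx8 and Cbx7 encode alternative chromodomain readers. Cbx8 had log2 values of 5.83, 6.11 and 6.20 in NSCPs and 5.21, 5.40 and 5.32 in SKPs, where its mean was within background, so its 1.67-fold difference (adjusted p = 0.00252) rests on a background level. Cbx7 was 1.38-fold higher (6.49 ± 0.12 in NSCPs and 6.02 ± 0.10 in SKPs, SD, 3 arrays each; adjusted p = 0.0146), and the adjusted p was 0.0604 without NSCP replicate 3. Bmi1, a scaffold subunit known for sustaining stem cell self-renewal in mice, was 1.36-fold higher (adjusted p = 0.0324), and this call was lost when NSCP replicate 1 or 3 or any 1 SKP replicate was left out (adjusted p from 0.0585 to 0.114).

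The ubiquitin ligase genes of the complex did not pass. Ring1 averaged 7.69 ± 0.33 in NSCPs and 7.35 ± 0.16 in SKPs (SD, 3 arrays each; adjusted p = 0.157), and Rnf2 averaged 9.78 ± 0.38 in NSCPs and 9.98 ± 0.07 in SKPs (SD, 3 arrays each; adjusted p = 0.421). Rnf2 varied mostly among NSCP arrays, with 10.08, 9.35 and 9.90, against 9.93, 9.94 and 10.05 in SKPs. The reader gene Cbx2 differed by 0.28 (adjusted p = 0.130). Cbx2 and Cbx7 shifted against each other by -0.19 with overlapping arrays (exact permutation p = 0.2, adjusted p = 0.225).

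Cbx5, the gene of heterochromatin protein HP1 alpha and the measured member of its family, was higher in NSCPs. Its log2 values were 10.95, 10.56 and 10.88 in NSCPs, against 9.52, 9.60 and 9.66 in SKPs. Each NSCP array lay above each SKP array, and the level was 2.30-fold that of SKPs (adjusted p = 1.60e-04).

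The 3 histone demethylase genes went separate ways. Kdm6b, which encodes an enzyme that removes the Polycomb methyl mark, had log2 values of 10.12, 10.34 and 9.93 in NSCPs and 9.42, 9.43 and 9.41 in SKPs. The SKP arrays were nearly alike (SD 0.01) and all lower, and Kdm6b was 1.64-fold higher in NSCPs (adjusted p = 0.00278). Kdm5b, an eraser of a mark of active promoters, had 9.38, 9.32 and 8.99 in NSCPs and 9.82, 9.82 and 9.94 in SKPs, without overlap, and fell by 0.63 on the log2 scale (adjusted p = 0.00637). Kdm1a, the LSD1 demethylase gene, did not pass, at 8.98 ± 0.07 in NSCPs and 8.82 ± 0.04 in SKPs (SD, 3 arrays each).

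Histone deacetylase genes were split, with 3 of 8 measured members higher in NSCPs, 2 lower and 3 that did not pass. That is 37.5% higher and 25% lower, against 25.2% and 18.6% of all genes. Among class I enzymes, the nuclear deacetylases of corepressor complexes, Hdac2 was higher at 10.16, 9.85 and 10.12 in NSCPs, against 9.29, 9.34 and 9.54 in SKPs (1.58-fold, adjusted p = 0.00473). Its partner Hdac1 did not pass, at 9.70 ± 0.12 in NSCPs and 9.65 ± 0.09 in SKPs (SD, 3 arrays each), with a 95% interval of the difference from -0.23 to 0.33. In mice Hdac1 and Hdac2 together are needed for Schwann cells to myelinate. Hdac2 shifted against Hdac1 by 0.60 without overlap between the groups (exact permutation p = 0.1, adjusted p = 0.129). Hdac8 was 1.39-fold higher in NSCPs (adjusted p = 0.0122, and 0.0569 without SKP replicate 3), and Hdac3, the catalytic subunit of the NCoR complex, differed by -0.04 with a 95% interval from -0.34 to 0.26.

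Class IIa deacetylases shuttle between nucleus and cytoplasm in response to signals, cAMP among them. Hdac4 was 1.37-fold higher in NSCPs, at 8.72, 9.11 and 8.88 against 8.52, 8.33 and 8.49 in SKPs. That call was weak (adjusted p = 0.0262) and was lost when NSCP replicate 2 or 3 or SKP replicate 2 or 3 was left out, with adjusted p from 0.0571 to 0.0754. Hdac7 had 6.65, 7.04 and 6.63 in NSCPs and 7.41, 7.26 and 7.33 in SKPs, and fell by 0.56 on the log2 scale (adjusted p = 0.0130, and 0.0536 without NSCP replicate 3). Hdac5 did not pass, with a difference of -0.20 (adjusted p = 0.268).

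Hdac11, the sole class IV deacetylase, was lower in NSCPs. Its log2 values of 5.69, 6.08 and 5.76 in NSCPs stood a little above background, against 6.87, 6.65 and 6.82 in SKPs. The groups did not overlap, and the level fell by 0.94 on the log2 scale (SE 0.14, adjusted p = 7.92e-04).

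**Figure D3:**
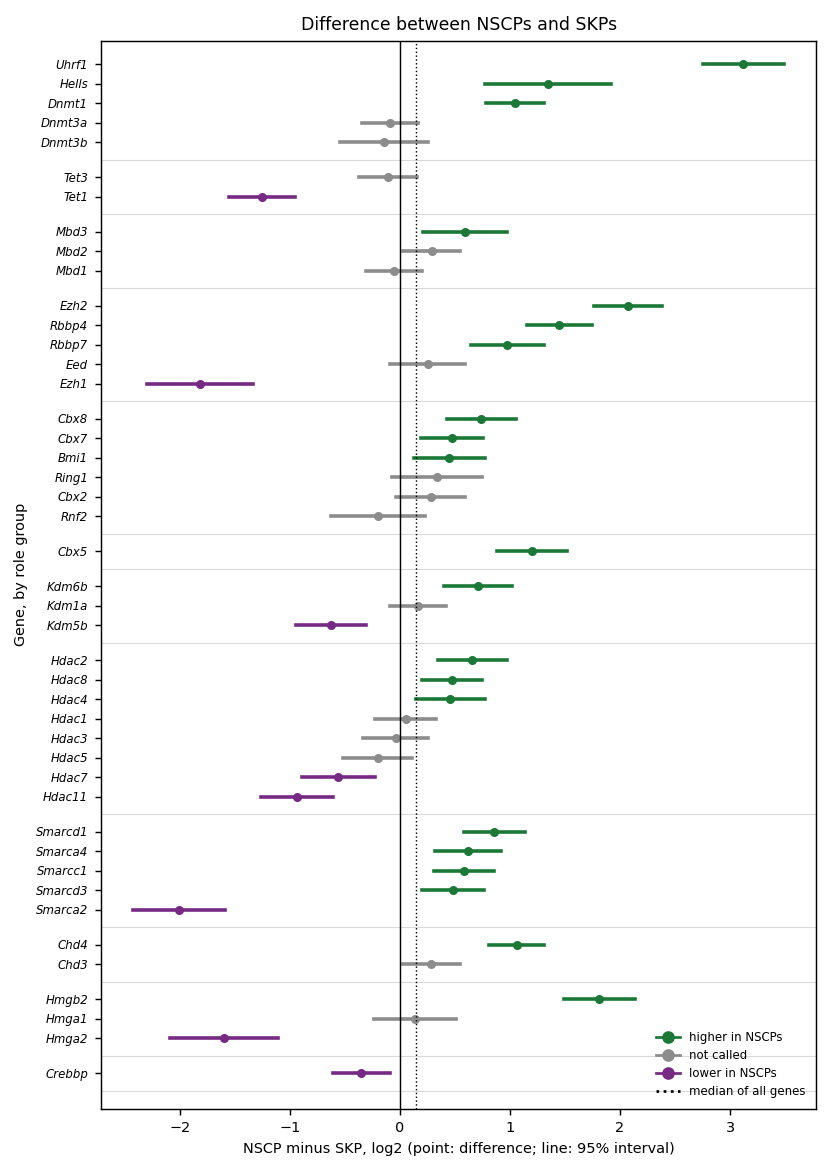
Difference between NSCPs and SKPs in log2 expression for the 44 measured members (horizontal axis, point) with its 95% interval from limma (line), in role groups from DNA methylation at the top to acetyltransferases at the bottom. Uhrf1 lies farthest to the right at 3.12 and Smarca2 farthest to the left at -2.01, and the dotted line marks the median of all genes at 0.14.

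Of 5 SWI/SNF subunit genes 4 were higher in NSCPs, and the remaining one, the alternative ATPase gene Smarca2, was lower. All 5 were thus called, against 43.7% of all genes. Smarca4 and Smarca2 encode the mutually exclusive ATPases BRG1 and BRM; in mice the first works with Sox10 in Schwann cell differentiation. Smarca2 had log2 values of 7.00, 6.27 and 6.65 in NSCPs, against 8.74, 8.61 and 8.59 in SKPs. Even the lowest SKP array lay above the highest NSCP array, and the level fell by 2.01 on the log2 scale (SE 0.18, adjusted p = 3.87e-05).

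Smarca4 stood at 10.29, 10.63 and 10.48 in NSCPs and 9.79, 9.81 and 9.94 in SKPs, 1.54-fold higher (adjusted p = 0.00492). Its values did not overlap between the groups either. Smarca4 therefore shifted against Smarca2 by 2.63 log2 units, or 6.17-fold (exact permutation p = 0.1, adjusted p = 0.129). The within-array differences did not overlap, which follows from both genes separating the groups in opposite directions.

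The other subunit genes among the members, Smarcc1, Smarcd1 and Smarcd3, differed in the direction of Smarca4. This direction was not shared by all genes of the complex. Of 21 other SWI/SNF genes, described below, 5 were higher, 4 lower and 12 did not pass. That is 42.9% called, near the 43.7% of all genes. Smarcc1, a core scaffold gene, was 1.49-fold higher in NSCPs, at 11.06 ± 0.06 against 10.48 ± 0.11 in SKPs (SD, 3 arrays each; adjusted p = 0.00434). Smarcd1 and Smarcd3 encode alternative subunits that link the complex to transcription factors. Smarcd1 had 9.37, 9.63 and 9.43 in NSCPs and 8.67, 8.56 and 8.62 in SKPs (1.81-fold, adjusted p = 5.35e-04), and Smarcd3 was 1.40-fold higher (adjusted p = 0.0137). Smarcd1 shifted against Smarcd3 by 0.38, without overlap and with an SD of the within-array difference of 0.02 in each group (exact permutation p = 0.1, adjusted p = 0.129).

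The Smarcd1 promoter is shown as the only window with the E2F letters among the SWI/SNF members. The stretch is chr7:132708447-132708546 on the plus strand, 180 to 81 bases before the start.
Smarcd1: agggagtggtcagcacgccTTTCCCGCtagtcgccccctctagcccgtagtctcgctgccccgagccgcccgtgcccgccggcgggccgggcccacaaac

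Of the CHD remodellers, Chd4 was higher in NSCPs and Chd3 did not pass. Both encode ATPases of the NuRD complex, and in mice Chd4 is needed for Schwann cell myelination. Chd4 had log2 values of 10.66, 10.75 and 10.66 in NSCPs, against 9.59, 9.65 and 9.66 in SKPs, a tight separation of 2.08-fold (adjusted p = 8.30e-05). Chd3 averaged 8.55 ± 0.03 in NSCPs and 8.26 ± 0.09 in SKPs (SD, 3 arrays each), and missed the threshold with a difference of 0.28 (adjusted p = 0.0716) although its arrays did not overlap. Chd4 shifted against Chd3 by 0.77, again without overlap (exact permutation p = 0.1, adjusted p = 0.129).

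The HMG proteins bend DNA and loosen chromatin, and their genes went in opposite directions. Hmgb2, an abundant factor of dividing cells, had log2 values of 10.06, 9.67 and 10.01 in NSCPs, against 8.23, 8.03 and 8.05 in SKPs (3.51-fold higher, adjusted p = 1.54e-05). Hmga2, an embryonic factor known in mice for stem cell self-renewal, stood at 8.09, 7.83 and 8.01 in NSCPs, against 9.80, 9.05 and 9.87 in SKPs, and fell by 1.60 on the log2 scale (SE 0.22, adjusted p = 4.13e-04). In both genes the arrays of the groups were apart, and SKP replicate 2 held the lowest SKP value of Hmga2. Its paralogue Hmga1 did not pass, at 11.00 ± 0.22 in NSCPs and 10.87 ± 0.21 in SKPs (SD, 3 arrays each), with a 95% interval of the difference from -0.24 to 0.51. Hmga1 shifted against Hmga2 by 1.74 log2 units, or 3.33-fold, with no overlap (exact permutation p = 0.1, adjusted p = 0.129). HMG genes have many processed copies in mammalian genomes, and whether the probes also read those was not tested.

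Crebbp, the gene of the acetyltransferase CBP, was lower in NSCPs by a small step. Its log2 values were 10.04, 9.92 and 9.87 in NSCPs, against 10.28, 10.28 and 10.33 in SKPs. The arrays did not overlap, and the level fell by 0.35 on the log2 scale (adjusted p = 0.0333). The call was lost when NSCP replicate 3 or any 1 SKP replicate was left out (adjusted p from 0.0678 to 0.112).

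Other genes of the same pathways, in lists that leave out the members, were called about as often as all genes. Of 159 measured of 200 listed, 44 were higher and 32 lower in NSCPs, or 47.8% in either direction against 43.7% of all genes. The 2 sets differ in level here too: 4 of the 159 were within background in both groups, against 5495 of all 18166 genes. The list of HMG and histone chaperone genes had 11 higher and 1 lower among 16, with Asf1b (2.45) and Chaf1a (2.12), which load histones onto new DNA, as the largest differences upward and Hmgn3 (-0.89) downward. Its median difference was 0.86, against 0.14 over all genes. Histone methyltransferase genes had 3 higher and 8 lower among 20: Suv39h2 (1.78) and Suv39h1 (1.09), which set the mark that HP1 binds, were higher, and Setd1a (-0.83) and Setd2 (-0.66) were lower.

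Other Polycomb genes went both ways, with 7 higher and 6 lower among 19, or 68.4% called against 43.7% of all genes. Phf19 (2.03), an accessory factor of complex 2, and Pcgf5 (1.33) were higher, and Auts2 (-1.49, NSCP mean within background) and Pcgf2 (-1.46), a paralogue of Bmi1, were lower. Other DNA methylation genes had 4 higher and 3 lower among 14. Tdg (0.89), the glycosylase that removes oxidised methylcytosine downstream of the TET enzymes, and Zbtb38 (0.86) were higher, and Gadd45a (-1.88) and Zbtb4 (-0.69) were lower. Other ATP-dependent remodeller genes had 2 higher, Baz1b (0.80) and Ruvbl2 (0.73), and 4 lower among 19, with Smarca1 (-3.58), an ISWI ATPase gene whose NSCP mean was within background, and Chd2 (-0.67).

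Other SWI/SNF genes had 5 higher and 4 lower among 21, with Dpf3 (0.96, SKP mean within background) and Actl6a (0.90) higher and Bcl11b (-0.95) and Bcl7b (-0.69) lower. Other demethylase genes had 3 higher and 2 lower among 13, with Riox1 (1.28) and Jmjd6 (0.77) higher and Jmjd1c (-1.17) and Kdm4c (-0.56) lower. Other deacetylases and corepressors had 2 higher, Sap18 (1.50, SKP mean within background) and Sirt3 (0.72), and 3 lower among 19, with Sirt5 (-1.25) and Mta3 (-0.87). Other acetyltransferase and bromodomain genes had 7 higher and 1 lower among 18, with Kat2b (1.65) and Ing1 (0.64) higher and Ncoa1 (-0.65) lower.

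**Figure D4:**
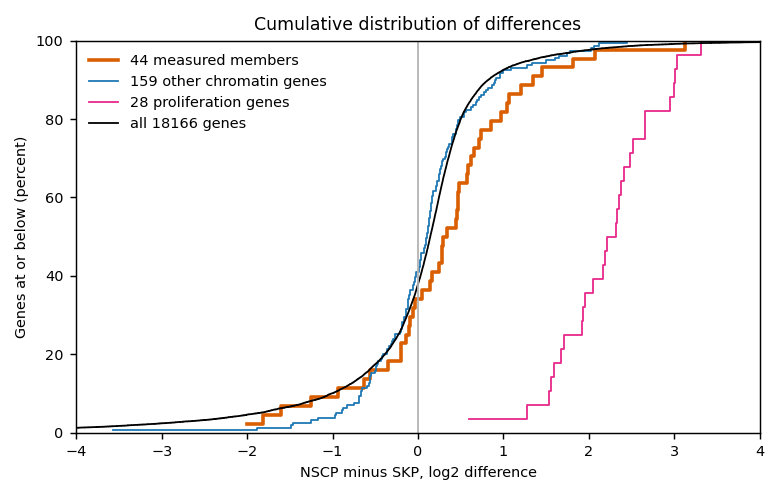
Share of genes (percent) at or below each NSCP minus SKP log2 difference, for the 44 measured members, 159 other chromatin genes, 28 proliferation genes and all 18166 genes, whose tails run past the axis. The medians were 0.31, 0.11, 2.27 and 0.14.

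The median SD of the members was 0.16 among NSCP arrays, near the 0.17 of all genes. Among SKP arrays it was 0.10, against 0.14 over all genes, which include many dim genes. NSCP replicate 2 held the highest or lowest of the 3 NSCP values in 79.5% of members and 76.6% of all genes, and NSCP replicate 3 in 43.2% and 55.3%. Pearson correlations across genes, which are not independent replicates, were 0.984 to 0.993 between arrays of 1 group and 0.872 to 0.888 between groups.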

How the data were processed

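The deposited values are log2 expression values, 1 for each of 36685 probe sets and array, made by the authors with oligo and RMA, per the submitters' processing notes, which give no versions; the quantile step of RMA removes any shift common to every gene. Their genome build is not given in the sources drawn on. The platform table paired 18511 probe sets with 1 symbol, 575 with several and 17599 with none; 18394 of the 18511 were matched by Entrez ID to RefSeq. The brightest probe set per gene was kept (18166 genes). NSCPs were compared with SKPs in 1 fit of all genes (limma 3.58.1, R 4.3.3, 2-sided, no filter); differences are NSCP minus SKP with 95% intervals. Within-array paralogue differences were tested by exact permutation (scipy 1.17.1); 1 of 10 planned pairs lacked a member. The fit was also run on simulated data. Far fewer genes changed there than were called here, so that run does not measure the error of these calls. Members and lists were chosen with earlier results of these data known. All members are named; from each other list up to 2 called genes with the largest difference per direction. No detection calls were used, and the number of arrays limits the precision. Alternatives were each array left out, a block for the replicate number, a second quantile normalization, centring on medians, array weights, a filter on dim genes, averaged probe sets, adjustment over every probe set, a robust trended prior, a threshold of 0.01 and limma's treat.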

Additional observations from a re-analysis of the deposited data

How the results depend on the processing

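No member changed direction with a call under any of the alternatives, and 22 of the 29 called members kept their call under all of them other than the stricter threshold and treat. The 7 others were Mbd3, Bmi1, Cbx7, Hdac8, Hdac4, Hdac7 and Crebbp. Of the 15 members that did not pass, 6 passed under some of the 14 alternatives other than those same 2: Mbd2 under 4 (lowest adjusted p 0.0131), Chd3 under 3, Ring1 under 2, and Eed, Cbx2 and Hdac5 under 1 each. Against a 2-fold change (limma's treat), 1758 genes, 4 members higher (Uhrf1, Ezh2, Rbbp4 and Hmgb2) and 2 lower (Ezh1 and Smarca2), and 8 other chromatin genes higher and 2 lower passed. At an adjusted p under 0.01 the other chromatin genes lower in NSCPs numbered 20. With 1 array left out, the calls over all genes ranged from 6341 to 7513, members higher from 18 to 21 and lower from 6 to 8, and other chromatin genes higher from 36 to 44 and lower from 20 (without SKP replicate 3) to 32. Fewer arrays give fewer calls by construction. The share of higher among all calls was 57.5% as deposited, 59.3% after renewed quantile normalization and 64.4% after median centring, which put the median difference of all genes at 0.21. With the replicate number as a block, 7681 genes, 20 members higher and 7 lower were called, with Hdac4 (adjusted p = 0.0522) and Crebbp (0.0599) lost. Same-numbered samples had correlations of deviations of 0.03 to 0.05, each the best for its sample, a hint from the data and not the design, so the numbers were not taken to pair the samples. Each paralogue shift kept its sign in the alternatives run on it except that of Dnmt3b against Dnmt3a, which ranged from -0.19 without SKP replicate 3 to 0.071 without SKP replicate 2, and was 0.02 without NSCP replicate 1.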
